A study of Mus musculus with 24 samples.

Results

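Mouse 32D cells labelled Nat10+/- KO1 were compared with WT 32D cells after 9 h of actinomycin D, across all expressed genes. The members are the 2 KO1 libraries and the 2 WT libraries titled with that time, 4 of the 24 libraries of the series, and 16167 genes passed the filter on low counts. 32D is a mouse bone marrow line that needs IL-3 to grow. The whole series holds KO1, a further Nat10+/- clone (KO2) and WT cells, each with 2 libraries at 0, 3, 6 and 9 h. The design text of the series gives its aim as the measurement of mRNA half-lives. All groups, the WT cells included, were cultured in RPMI medium that held 10% serum plus 10 ng/ml of IL-3 and were given actinomycin D at 0.05 µg/ml, and 0 h is the collection before any time in the drug. The labels call the 2 libraries of a group biological replicates, and KO1 is 1 clone, so an effect of the Nat10 lesion and a property of that clone cannot be told apart. How the Nat10 allele was disrupted is not given in the sources used here.

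Nat10 is the enzyme that places N4-acetylcytidine (ac4C) on RNA. It acetylates 18S rRNA and, with its adaptor Thumpd1, tRNA, and it has been reported to acetylate mRNA. Actinomycin D binds DNA and blocks transcription, RNA polymerase I being the most sensitive, so that over hours a transcript's share of the mRNA pool falls if it decays faster than the average and rises if it is stable or is still made. Values here are CPM, read counts brought to a common library size set by the bulk of the genes, so every difference is relative to the average transcript and none is an absolute amount or a decay rate. In bulk RNA, a smaller number of cells of a kind and less RNA in each cell cannot be told apart. Below, a gene that rose or fell is one higher or lower in KO1 than in WT, unless a change in the drug is named. It need not have moved that way over time.

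The 4 libraries held between 15670514 and 16215702 gene counts. The replicate tables of a group name the same alignment file in their headers. Their counts differed by more than sampling noise, with a chi-square per degree of freedom of 1.43 in KO1 and 1.53 in WT at 9 h. The spread between replicates was small, with a common coefficient of variation of 0.0206 in the fit of all groups. Whether the 2 libraries of a group are separate cultures was not tested, and every p-value below measures only the spread between them. Spike-in RNA made up 258 and 257 CPM, taken over raw gene counts, in KO1, against 15.9 and 12.2 in WT, and the gap was already there at 0 h, with means of 240 in KO1 and 7.19 in WT. With spike-in totals as the scale in place of the genes, 16007 genes were lower in KO1 at 9 h and 0 higher, with a median log2 difference of -4.16, so every direction below holds for the scale set by the genes. The mitochondrial chromosome took between 3.67% and 3.70% of counts in KO1 and 4.30% in both WT libraries. The label calls the cells bone marrow lymphoblastocytes. Of the markers of B and T cells, Cd3g and Ms4a1 had 0 counts in all 4 libraries, Cd3e had 1 count in all, while Cd79a stood at 12.6 and 12.7 CPM in KO1 and 20.6 and 21.6 CPM in WT. The myeloid gene Spi1, the common beta receptor chain gene Csf2rb and the IL-3 receptor gene Il3ra were all present, at 52.3 CPM or more. Ptprc, Cebpa, Itgam, Myb and Gfi1 stood at 10.7 CPM or more, and Runx1 at 5.07 and 5.26 CPM in KO1 and 5.83 and 5.34 in WT. Other blood cell markers were near the floor: Mpo had 9 and 23 counts in KO1 and 21 and 20 in WT. Cd34 had 13 and 12 counts in KO1 and 12 and 13 in WT, and Kit had 0 counts. Of the stromal, epithelial and endothelial markers, Col1a2, Bgn, Epcam and Krt8 had 0 counts in all 4 libraries, Fn1 and Cdh5 had 0 to 3, Col1a1 had 17 and 6 counts in KO1 and 15 and 12 in WT, and Pecam1, which blood cells also express, had 1297 and 1330 counts in KO1 and 1195 and 1159 in WT.

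Nat10 stood at 47.5 and 50.1 CPM in the KO1 libraries, against 62.2 and 65.9 CPM in the WT libraries. Both KO1 libraries lay below both WT libraries, as they did in 31.9% of the genes tested, while both lay above in 34.2%. The KO1 level was 0.762 times that of WT (log2 difference -0.39, SE 0.06, adjusted p = 1.03e-08, edgeR quasi-likelihood test with Benjamini-Hochberg adjustment over the 16167 genes, which is also the test behind every adjusted p below). The gene spans chromosome 2, 103551601 to 103591615 on the minus strand (GRCm39). Before the drug the gap was -0.12, and its change between 0 h and 9 h was -0.27 with an SE of 0.07 (adjusted p = 0.00278). Thumpd1 stood at 127 and 121 CPM in KO1 and 124 and 116 CPM in WT, a difference of 0.05 with an SE of 0.04 (adjusted p = 0.418).

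At 9 h, 5568 genes passed an adjusted p of 0.05, which is 34.4% of those tested. Of these 3124 were higher in KO1 (19.3%) and 2444 were lower (15.1%). The list counts at 9 h below are to be read beside these shares. Abundant genes passed more often: in the highest of 5 equal bins by mean CPM 42.4% were higher and 23.96% lower. Most differences were small: 2822 of the higher genes and 1578 of the lower genes differed by less than 1.5-fold. At least 2-fold differences were more frequent on the lower side, with 117 genes higher (0.724%) and 414 lower (2.56%). The balance of directions rested on the scaling, since upper-quartile scaling gave 2258 higher and 3126 lower, while the median over all genes moved only between -0.05 and 0.03 under the 3 other scalings of gene counts. When the test asked for a difference beyond 1.2-fold, 526 genes were higher and 821 lower.

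Fzd5, a Wnt receptor, stood at 2.62 and 2.21 CPM in KO1, against 21.1 and 22.2 CPM in WT (log2 difference -3.16, SE 0.18, adjusted p = 1.3e-29). Lyz2, lysozyme of neutrophils and macrophages, stood at 5.83 and 6.06 CPM in KO1, against 39.9 and 41.6 CPM in WT (-2.78, SE 0.12). The rule that chose these genes required the groups not to overlap. The neighbouring inhibitory receptor genes Lilrb4a and Lilr4b on chromosome 10 fell together, Lilrb4a to 34.96 and 32.6 CPM in KO1, against 131 and 131 CPM in WT, and Lilr4b to 14.8 and 15.4 CPM in KO1, against 60.3 and 58.4 CPM in WT; the pair are paralogues, so their reads may be split or lost between them. Adgre1, the macrophage antigen F4/80, fell to 13.6 and 13.2 CPM in KO1, against 55.1 and 58.0 CPM in WT. The interleukin receptor gene Il18r1, the matrix protease gene Mmp9, the cytotoxic granule gene Nkg7 and the surface glycoprotein gene Cd52 were also among the 12 largest, with log2 differences of -2.09, -1.73, -1.70 and -1.66. Fxyd4, Cdc42bpa and Fam213a completed the 12, at -2.27, -2.02 and -1.99. Of the 12, 10 were already lower at 0 h at the same threshold, and Cdc42bpa and Cd52 did not pass there.

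The 12 largest rises were smaller than the 12 largest falls. Nectin4, a cell adhesion molecule, stood at 199 and 201 CPM in KO1, against 82.7 and 87.4 CPM in WT (log2 difference 1.23, SE 0.05, adjusted p = 3.54e-44). Meis3, a homeobox gene, headed the list with 9.15 and 8.49 CPM in KO1, against 2.68 and 3.95 CPM in WT (1.41, SE 0.19). Csn3, which encodes kappa-casein, stood at 40.8 and 43.0 CPM in KO1, against 17.7 and 17.9 CPM in WT. Gimap3, a GTPase of lymphocytes, stood at 10.96 and 12.7 CPM in KO1, against 4.78 and 5.63 CPM in WT. Ces2f, Dgat2, Evpl, Ggt5, Bglap2, Cep164, Serpinf1 and Cst7 completed the 12, with log2 differences between 1.09 and 1.35. At 0 h 4 of these 12 already passed as higher, Csn3, Gimap3, Nectin4 and Cst7, 1, Serpinf1, passed as lower, and 7 did not pass.

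**Figure D1:**
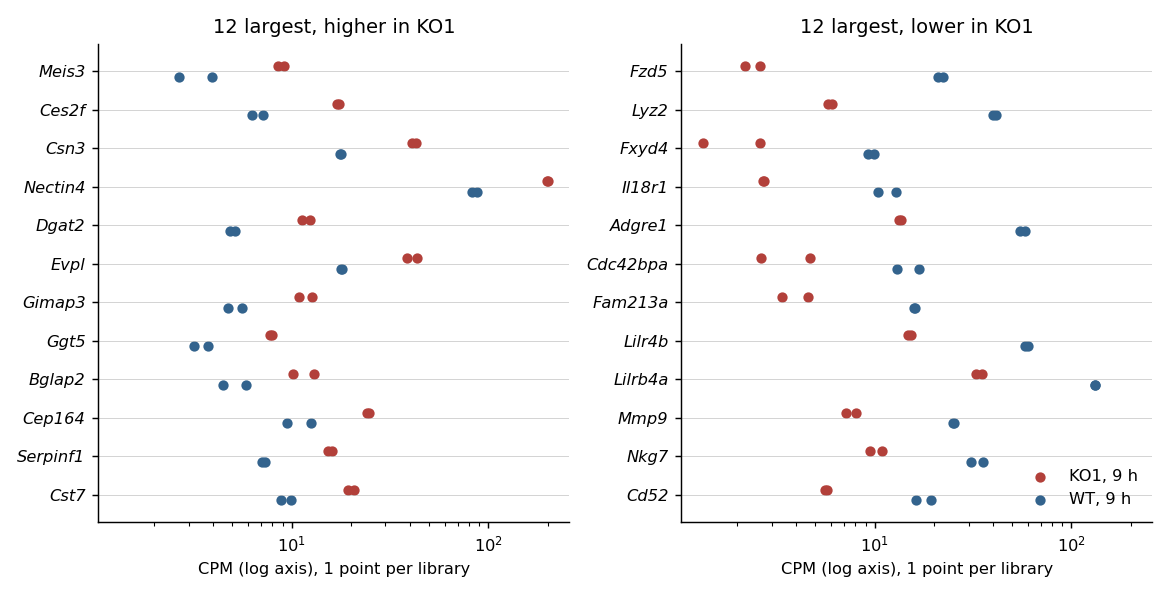
CPM on a log axis for the 12 genes with the largest rises (left) and the 12 with the largest falls (right) in KO1 against WT at 9 h, with 1 point for each library, KO1 drawn above WT in each row. No KO1 point overlaps a WT point of the same gene, a property the choice of these genes required, and Nectin4 at 199 and 201 CPM in KO1 is the most abundant gene on the left.

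Some genes had counts in one group alone. Fzd7, a further Wnt receptor, had 0 counts in the KO1 libraries and 90 in the WT libraries at 9 h, at least 30.4-fold lower against a floor of 3 counts over the group. Arsb, a lysosomal sulfatase, had 0 counts in KO1 and 25 in WT, at least 8.45-fold lower. Lrrn3 had 25 counts in KO1 and 0 in WT, at least 8.22-fold higher. These bounds cover counting error only.

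The clearest family was that of the cytosolic ribosomal proteins, the protein part of the ribosome. Of 80 tested genes 75 were lower in KO1 at 9 h and 1 was higher, against 15.1% lower and 19.3% higher over all genes, and the median log2 difference was -0.36, against 0.007 over all genes. Before the drug the same list had 17 genes higher, 21 lower and a median of -0.003. Over all genes 15% were higher and 12.3% lower at 0 h. The change of the gap between 0 h and 9 h passed the test in 76 of the 80, all toward lower in KO1, against 12.5% over all genes. All 82 genes of the list, tested or not, made up 94671 and 94596 CPM in KO1 and 119630 and 119110 CPM in WT at 9 h. At 0 h they made up 73879 and 74243 CPM in KO1, against 73820 and 73603 CPM in WT. Their share of the pool thus rose in the drug in both genotypes and reached a lower level in KO1. The gap was already open at 3 h, with 74 genes lower and a median of -0.25, and at 6 h, with 75 lower and -0.24. Over all genes 16.7% were lower and 20.1% higher at 3 h (36.8% in all), and 17.4% were lower and 18.4% higher at 6 h (35.7% in all).

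Both subunits took part. The large subunit had 45 of 47 genes lower with a median of -0.34, and the small subunit had 28 of 31 lower with a median of -0.37. Rps21 stood at 461 and 461 CPM in KO1, against 679 and 669 CPM in WT (log2 difference -0.55, SE 0.02, adjusted p = 6.82e-42). Rpl26 stood at 47.1 and 44.8 CPM in KO1, against 68.2 and 67.3 CPM in WT. The 4 genes that did not pass were Rpl24, Rpl3l, Rps2 and Rps10, with differences of 0.45, 0.38, 0.02 and -0.25, named here after their values were seen; Rpl24 and Rpl3l stood under 3 CPM. Rps27l, the single gene that rose, at 238 and 239 CPM in KO1 and 213 and 214 CPM in WT, is known as a p53 target. Ribosomal protein genes have many processed pseudogenes, so the counting could split or lose their reads.

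Ribosomal protein mRNAs are known for a 5′ terminal oligopyrimidine (TOP) tract, a run of C and T that starts at the first transcribed base and ties their use to growth signals. The windows below run from 40 bases before to 20 bases from the annotated start and are shown because they hold that region. Capitals mark the motif CTTTC on the sense strand where it occurs. A match can lie anywhere in the window, so a marked stretch need not belong to a tract that begins at the start. In Rpl12 it follows other bases, G among them, after the annotated start. Rpl28, Rpl12 and Eif3f were lower in KO1 and Eif4g1, Eif4a1 and Psma2 were higher; the 6 were picked after their values were seen, the first 3 for holding the motif and the other 3 for lacking it. The sequences are from RefSeq on GRCm38.p6, 5′ to 3′ on the strand of the gene.
Rpl28, chr7:4792925-4792984, plus strand: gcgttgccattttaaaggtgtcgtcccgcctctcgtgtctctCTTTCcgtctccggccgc
Rpl12, chr2:32961672-32961731, plus strand: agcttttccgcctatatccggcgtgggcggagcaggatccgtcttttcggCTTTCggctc
Eif3f, chr7:108934375-108934434, plus strand: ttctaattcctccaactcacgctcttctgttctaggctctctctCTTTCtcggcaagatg
Eif4g1, chr16:20672687-20672746, plus strand: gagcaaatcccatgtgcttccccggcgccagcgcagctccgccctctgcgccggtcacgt
Eif4a1, chr11:69672404-69672463, minus strand: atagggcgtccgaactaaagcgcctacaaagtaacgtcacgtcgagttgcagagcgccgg
Psma2, chr13:14613202-14613261, plus strand: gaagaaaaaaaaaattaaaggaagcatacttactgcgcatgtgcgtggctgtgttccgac

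CTTTC was found on the sense strand in 19 of the 59 ribosomal protein genes with a window in the table, 32.2%, against 2153 of all 27025 windows, 7.97%. On the opposite strand it was found in 4 of the 59, 6.78%, against 6.99% of all windows. The sense share was 4 of 50 for translation factors, 0 of 25 for proteasome subunits, 4 of 68 for mitochondrial ribosomal proteins and 7 of 38 for the G1/S list. CTTTC was 1 of 6 motifs compared and was kept after the shares of all 6 had been seen, so its share is a description with no test. The other 5 were found on the sense strand in 10 (CTCTTT), 7 (CTTTT), 14 (TCTTT), 12 (CCTTT) and 10 (CTTTCC) of the 59, against 2.43%, 6.85%, 7.51%, 7.44% and 2.85% of all windows; the 6 overlap in their letters. Most of the 59 windows lack CTTTC, and a match is not a site. Rpl28 itself stood at 1301 and 1315 CPM in KO1, against 1810 and 1821 CPM in WT at 9 h, and at 1122 and 1146 CPM in KO1, against 1124 and 1132 CPM in WT at 0 h. Rpl12 stood at 1530 and 1509 CPM in KO1, against 2125 and 2095 CPM in WT at 9 h.

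The translation factors divided. Of 67 tested genes 25 were higher and 18 lower in KO1 at 9 h, which upper-quartile scaling turned to 17 higher and 22 lower. The members of this list outside its 6 largest, like Rpl28, Rpl12, Cdkn1a and Irf7 elsewhere, were named after their values were seen. The elongation factor genes Eef1a1, Eef1b2, Eef1g and Eef2 were all lower: Eef1a1, which delivers tRNA to the ribosome, stood at 11698 and 11745 CPM in KO1, against 14672 and 14634 CPM in WT (log2 difference -0.32, SE 0.01), and Eef1g stood at 867 and 875 CPM in KO1, against 1178 and 1185 CPM in WT (-0.44, SE 0.02). The subunits of initiation factor 3, which holds the small subunit ready for mRNA, went both ways: Eif3f, Eif3h, Eif3k, Eif3i and Eif3e were lower, by -0.48, -0.42, -0.31, -0.24 and -0.16, and Eif3d, Eif3g, Eif3c and Eif3b were higher, by 0.19, 0.15, 0.13 and 0.12. Eif3j1 was also higher, and Eif3a, Eif3l, Eif3m and Eif3j2 did not pass. The cap-binding complex genes Eif4g1 and Eif4a1 rose, Eif4g1 to 628 and 638 CPM in KO1, against 552 and 526 CPM in WT, and Eif4a1 to 819 and 828 CPM in KO1, against 697 and 714 CPM in WT. Eef1akmt1, Eif2ak1 and Eif2b4 led the higher side at 0.42, 0.40 and 0.36.

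A further 16 mRNAs known for TOP tracts and outside the ribosomal proteins were listed after their values were seen, so they carry no test of their own, and 10 of them are also translation factors. Of the 16, 12 were lower, 3 were higher and 1 did not pass at 9 h, with a median of -0.30, against 0.005 at 0 h. Rack1, a scaffold on the small subunit, stood at 2454 and 2446 CPM in KO1, against 3250 and 3245 CPM in WT, and Tpt1 stood at 1974 and 1946 CPM in KO1, against 2557 and 2544 CPM in WT. The 3 that were higher were Npm1, a nucleolar chaperone, at 772 and 778 CPM in KO1 and 618 and 636 CPM in WT, the poly(A)-binding protein gene Pabpc1, at 1386 and 1427 CPM in KO1 and 1171 and 1175 CPM in WT, and the intermediate filament gene Vim, at 621 and 612 CPM in KO1 and 459 and 468 CPM in WT. Eef1d did not pass, at -0.06.

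**Figure D2:**
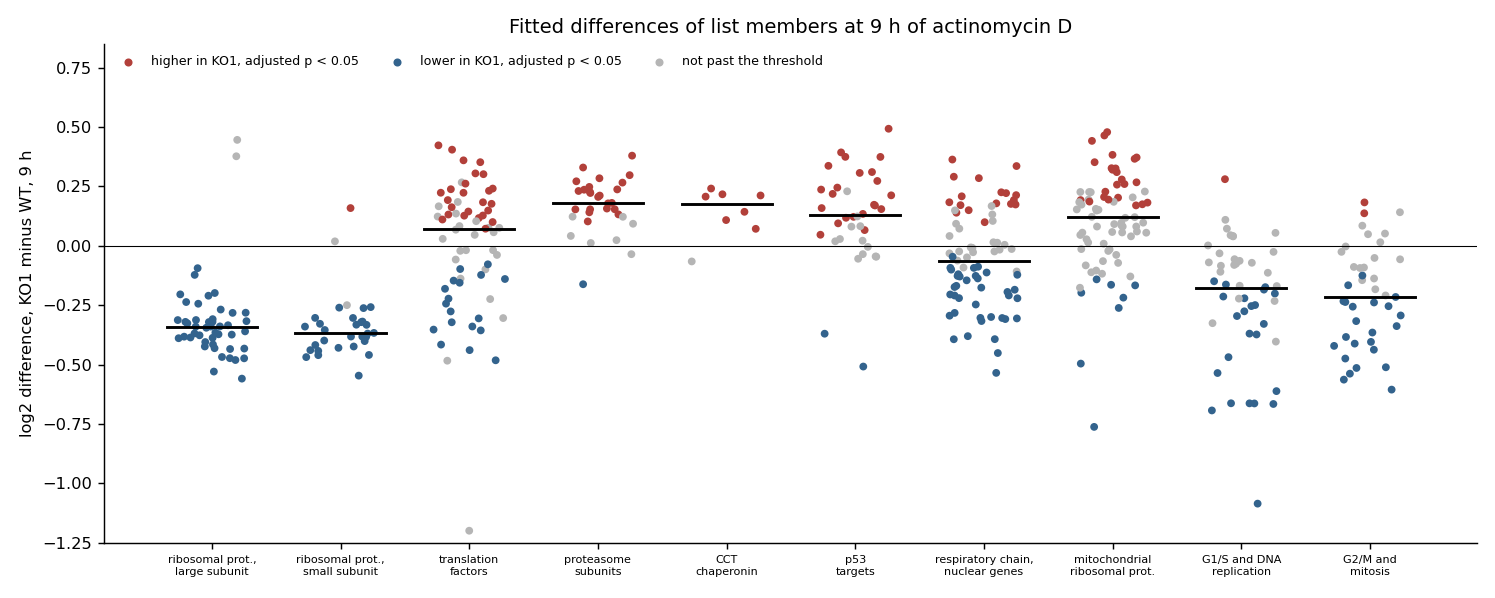
Fitted log2 difference (KO1 minus WT) at 9 h for each tested member of 10 groups of genes, with 1 point for each gene, red for higher and blue for lower at an adjusted p under 0.05, grey otherwise, and a black line at the group's median. Both ribosomal protein subunits sit almost wholly under 0, with medians of -0.34 and -0.37, proteasome subunits sit above it, with a median of 0.18, and translation factors lie on both sides; 1 translation factor below -1.2 is drawn at the edge.

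The other lists of ribosome production were mixed. Of 50 ribosome assembly factors 9 were higher and 10 lower in KO1 at 9 h, or 5 and 15 under upper-quartile scaling. At 0 h 38 were higher and 0 lower, against 15% higher and 12.3% lower over all genes. Their gap moved toward lower in 28 and toward higher in 1, against 12.5% and 14.7% over all genes. Nolc1, Dkc1 and Rrp12, of the nucleolar assembly machinery, were lower by -0.37, -0.34 and -0.33. The small nucleolar RNA host transcripts had 7 of 12 lower and 0 higher, with a median of -0.26, against 0.19 at 0 h. Snhg17 stood at 38.4 and 38.1 CPM in KO1, against 54.1 and 54.5 CPM in WT (log2 difference -0.50, SE 0.06). Mitochondrial ribosomal proteins had 24 of 77 higher and 8 lower (5 lower without replicate 1 of WT), led by Mrpl41 at 49.6 and 49.3 CPM in KO1 and 35.7 and 35.3 CPM in WT, while Mrpl38 was the most reduced, at -0.76. The RNA polymerase I machinery had 3 of 15 higher and 2 lower, 1 and 5 under upper-quartile scaling, and 1 or 2 higher and 1 lower without any 1 library.

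Genes of protein turnover and folding were more often higher than lower. Over all genes 19.3% were higher and 15.1% lower, and in the highest of 5 equal bins by mean CPM 42.4% and 23.96%. Of 31 proteasome subunits 23 were higher in KO1 at 9 h and 1, Psmb1, was lower, with a median of 0.18, against 0.07 at 0 h. Psmc3, an ATPase of the regulatory particle, stood at 232 and 226 CPM in KO1, against 177 and 175 CPM in WT (log2 difference 0.38, SE 0.03, adjusted p = 7.84e-20). Psma2 of the core ring stood at 109 and 115 CPM in KO1, against 90.1 and 88.0 CPM in WT, and Psmd3 of the lid rose by 0.30. Of the 8 subunits of CCT, the chaperonin that folds actin and tubulin, 7 were higher and 0 lower, with Cct4 at 242 and 247 CPM in KO1 and 205 and 208 CPM in WT. Cytosolic heat-shock chaperones had 12 of 21 higher and 2 lower (0 lower without replicate 1 of KO1 and 1 without any other library), among them Chordc1 at 0.35. Chaperones of the endoplasmic reticulum had 13 of 25 higher and 4 lower. The higher members were led by Syvn1, Xbp1 and Selenos, at 0.31, 0.30 and 0.28. The abundant Calr was lower, at 3059 and 3097 CPM in KO1, against 3970 and 3968 CPM in WT. Summed over that list, levels were lower in KO1, at 9296 and 9345 CPM, against 9799 and 9837 CPM in WT.

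Targets of p53, the factor that halts the cycle when ribosome assembly or DNA is damaged, had 22 of 36 higher in KO1 and 2 lower, with a median of 0.13; under upper-quartile scaling 14 were higher, and 1 was lower without replicate 1 of KO1 or of WT. Over all genes 19.3% were higher and 15.1% lower at 9 h. At 0 h 22 of the p53 targets were already higher and 3 lower, with a median of 0.23, against 15% and 12.3% over all genes. Their gap changed toward higher in 8 and toward lower in 13, against 14.7% and 12.5% over all genes. Summed over the list, levels were 11486 and 11489 CPM in KO1, against 9890 and 9847 CPM in WT at 9 h, and 3687 and 3685 CPM in KO1, against 3105 and 3160 CPM in WT at 0 h. The list therefore gained in both genotypes and was higher in KO1 at both times. Mdm2, the ubiquitin ligase for p53, stood at 844 and 832 CPM in KO1, against 640 and 636 CPM in WT (log2 difference 0.39, SE 0.02), and Trp53inp1 stood at 2390 and 2392 CPM in KO1, against 1854 and 1834 CPM in WT. Cdkn1a, the inhibitor that carries the arrest, differed by only 0.05 (adjusted p = 0.0371). Trp53cor1 and Gdf15 were lower, at -0.51 and -0.37. The apoptosis and survival list had 10 of 26 higher and 5 lower, or 6 and 5 under upper-quartile scaling, with 2 lower without replicate 2 of KO1 and 3 without either WT library. The BCL2 family genes Bcl2a1a and Bax were higher, Bcl2a1a at 27.9 and 29.9 CPM in KO1 and 14.2 and 13.4 CPM in WT, and Bcl2 and Birc5 were lower.

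Of 48 genes of G1/S and DNA replication 23 were lower in KO1 at 9 h and 1 was higher, with a median of -0.18, whereas at 0 h 24 were higher and 2 lower, with a median of 0.16. The median was lowest at 3 h, at -0.31 with 34 lower, and the gap changed toward lower between 0 h and 9 h in 30 of the 48. Over all genes 15% were higher and 12.3% lower at 0 h, and 20.1% were higher and 16.7% lower at 3 h. The gap changed toward higher in 14.7% of all genes and toward lower in 12.5%. E2f2, a transcription factor for S-phase genes, stood at 21.7 and 22.5 CPM in KO1, against 46.2 and 47.6 CPM in WT (log2 difference -1.09, SE 0.08, adjusted p = 3.73e-22), and at 0 h its difference was -0.03. Cdc6, which loads the replicative helicase, stood at 23.1 and 24.3 CPM in KO1, against 36.3 and 39.1 CPM in WT, and Ccne1 at 10.6 and 12.8 CPM in KO1, against 18.4 and 19.5 CPM in WT. The G2/M list had 23 of 41 lower and 2 higher, against 4 lower and 9 higher at 0 h, where its median was 0.03, with Ttk, Kif11 and Nuf2 at -0.61, -0.56 and -0.54, and Cenpa and Bub3 higher by 0.18 and 0.14. Against KO2 at 9 h, KO1 was lower in 33 of the 48 G1/S genes and 29 of the 41 G2/M genes and higher in 0 of both, against 4.89% lower over all genes.

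**Figure D3:**
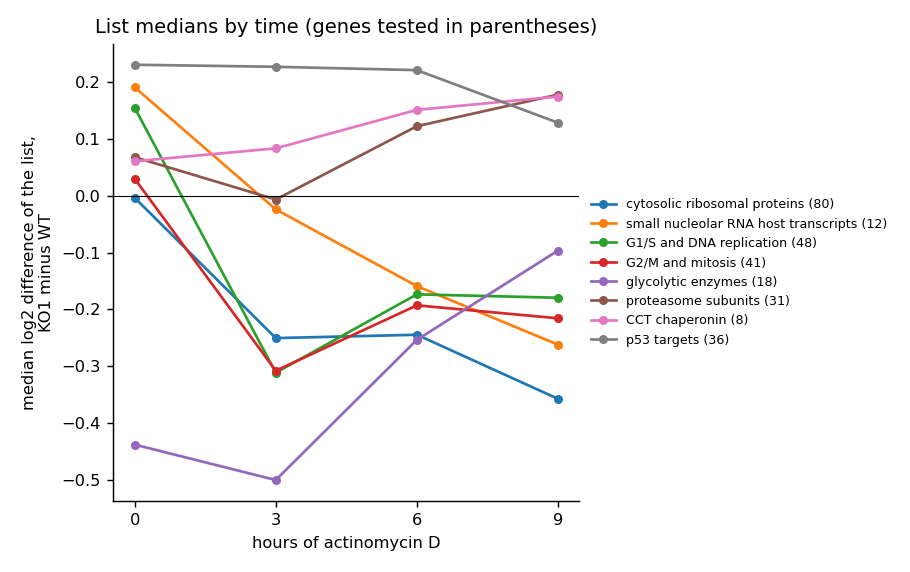
Median log2 difference (KO1 minus WT) of 8 groups of genes at 0, 3, 6 and 9 h of actinomycin D, with the number of genes tested in the legend. The ribosomal protein line leaves 0 by 3 h and reaches -0.36 at 9 h, the G1/S line starts at 0.16, is lowest at 3 h at -0.31 and stands at -0.18 at 9 h, and the glycolysis line comes back toward 0.

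Genes of energy metabolism went both ways. The shares over all genes were 19.3% higher and 15.1% lower at 9 h, and 15% and 12.3% at 0 h. Nuclear-encoded subunits of the respiratory chain had 17 of 77 higher and 37 lower in KO1 at 9 h, while at 0 h 15 were higher and 6 lower. The count was smaller without single libraries, with 24 lower without replicate 2 of KO1 and 28 or 29 lower without any other, and 11 were higher without replicate 1 of WT or under upper-quartile scaling. Cox7a2l, Ndufv3 and Uqcr11 were lower by -0.54, -0.45 and -0.39, and Uqcrc1 and Ndufs1 higher by 0.36 and 0.34. Of the 13 protein-coding genes of the mitochondrial genome 7 were lower and 1, mt-Co3, was higher (0 without replicate 1 of KO1 or of WT, and 2 without replicate 2 of KO1): mt-Co1 stood at 18080 and 18221 CPM in KO1, against 21878 and 21736 CPM in WT. At 0 h 6 were already lower. The glycolytic enzymes had 10 of 18 lower and 2 higher, against 16 lower and 0 higher at 0 h. Their gap moved toward higher in 14 and toward lower in 1, against 14.7% and 12.5% over all genes. Pgk1 stood at 678 and 676 CPM in KO1, against 898 and 890 CPM in WT, and Eno1 at 1154 and 1139 CPM in KO1, against 1419 and 1442 CPM in WT, while Hk1, which traps glucose in the cell, was higher by 0.28. Genes of cholesterol synthesis and uptake had 5 of 23 higher and 1 lower, against 1 higher and 11 lower at 0 h; at 9 h upper-quartile scaling gave 3 higher and 5 lower, and 3 were higher without replicate 2 of WT.

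Short-lived regulators were more often lower than higher. For the lists of this paragraph the shares over all genes were 19.3% higher and 15.1% lower at 9 h, and 15% and 12.3% at 0 h. Of 31 immediate early genes and other short-lived regulators 15 were lower and 4 higher in KO1 at 9 h (2 higher without replicate 1 of KO1 or replicate 2 of WT), against 5 lower and 10 higher at 0 h. Atf3, a stress-induced factor, stood at 0.466 and 0.792 CPM in KO1, against 4.61 and 3.72 CPM in WT (log2 difference -2.71, SE 0.40), and Egr1 at 6.76 and 6.57 CPM in KO1, against 11.9 and 12.3 CPM in WT. Among NF-kB subunits and feedback genes 11 of 17 were higher and 3 lower: Rela stood at 190 and 186 CPM in KO1, against 152 and 149 CPM in WT, and Nfkb1 rose by 0.33, while Traf1 and Tnf were lower by -1.11 and -0.46. Integrated stress response genes had 5 of 24 higher and 9 lower, against 14 higher and 1 lower at 0 h, with Pycr1 and Cebpb at -0.74 and -0.68. The mRNA decay machinery had 16 of 54 higher and 5 lower, or 12 and 10 under upper-quartile scaling, with the nucleases Parn and Xrn2 higher by 0.50 and 0.40 and the decapping enzyme gene Dcp2 lower by -0.41.

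Of 23 blood progenitor regulators 10 were lower and 5 higher, with a median of -0.16, and 6 were lower without replicate 2 of WT. The factor genes Spi1 and Cebpe were higher, Spi1 at 81.5 and 78.8 CPM in KO1 and 59.9 and 63.5 CPM in WT, whereas Cebpa, the granulocyte factor, fell to 23.5 and 20.04 CPM in KO1, against 50.1 and 51.9 CPM in WT (log2 difference -1.23, SE 0.09). Neutrophil granule and oxidase genes had 4 of 19 higher and 7 lower, with the oxidase subunit gene Ncf1 at 106 and 107 CPM in KO1 and 67.9 and 67.0 CPM in WT, and Ltf lower by -1.23. Mast cell and basophil genes had 2 of 16 higher and 5 lower, with 1 higher without either KO1 library or replicate 1 of WT; Srgn, the proteoglycan of granules, fell to 527 and 534 CPM in KO1, against 765 and 769 CPM in WT. Of 9 macrophage and monocyte genes 4 were higher and 4 lower, with Csf1r, Cd163 and Cd14 higher by 0.86, 0.52 and 0.50. The largest difference in that list was on the lower side, that of the macrophage antigen gene Adgre1 given above, at -2.08. Summed over each list, levels were 3828 and 3864 CPM in KO1 and 5104 and 5091 CPM in WT for the neutrophil genes, 1303 and 1316 CPM in KO1 and 1663 and 1666 CPM in WT for the mast cell genes, and 459 and 458 CPM in KO1 and 568 and 565 CPM in WT for the macrophage genes. Of the 29, 28 and 17 names in these lists, 6, 10 and 4 had 0 counts in all 4 libraries, and the part of other cell types in the results was not tested. The erythroid and megakaryocyte list had 2 of 15 higher and 6 lower, with a median of 0.02. The beta globin gene Hbb-bs had 15 and 20 counts in KO1, against 0 and 1 in WT. Other erythroid markers did not follow it. The alpha globin gene Hba-a1 had 204 and 265 counts in KO1, against 269 and 288 in WT. Alas2 had 5 and 14 counts in KO1, against 8 and 9 in WT. The platelet chemokine gene Ppbp fell to 83.4 and 85.4 CPM in KO1, against 169 and 174 CPM in WT.

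Interferon-stimulated genes separated the clones. At 9 h 20 of 42 were higher in KO1 than in WT and 3 were lower, with a median of 0.19, and without replicate 1 of KO1 13 were higher. Ifi35 stood at 100.5 and 89.8 CPM in KO1, against 58.6 and 59.2 CPM in WT, and Irf7 at 63.7 and 65.0 CPM in KO1, against 46.4 and 45.1 CPM in WT, while Bst2 fell to 296 and 293 CPM in KO1, against 449 and 438 CPM in WT. In KO2 against WT, 39 of the 42 were higher and 0 lower, with a median of 1.28, against 18.7% higher and 16.5% lower over all genes (35.2% in all). Tested directly, KO1 was lower than KO2 in 40 of the 42 and higher in 0, against 4.89% and 7.54% over all genes. The MHC class I list had 7 of 18 higher and 7 lower than in WT, with a median of 0.002. H2-K1, at the low end, stood at 259 and 251 CPM in KO1, against 345 and 339 CPM in WT. Against KO2, KO1 was lower in 14 of the 18 genes of that list and higher in 2, beside the same shares over all genes.

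Over all genes 2010 differed between KO1 and KO2 at 9 h (12.4%), 1219 higher in KO1 (7.54%) and 791 lower (4.89%), while DESeq2 called 1335. Leaving out replicate 1 of KO1, replicate 2 of KO1 or replicate 2 of KO2 gave 1330, 1274 and 1334. Mid1ip1, a regulator of lipid synthesis, had 549 counts in KO1 and 1 in KO2, a ratio of 564 with a 95% exact counting interval of 100.9 to 22330, and stood at 15.1 and 16.4 CPM in KO1, against 28.3 and 28.6 CPM in WT. Rtp4, an interferon-induced chaperone gene, had 2 counts in KO1, 1862 in KO2 and 0 in WT. Nat10 itself did not pass between the clones, with a difference of 0.05 and an SE of 0.06 (adjusted p = 0.711). KO1 and KO2 share the WT libraries in their comparisons with WT, and at 9 h the median ribosomal protein difference was -0.36 in KO1 and -0.41 in KO2, with 75 and 76 genes lower. Tested directly, KO1 was higher than KO2 in 37 of the 80 and lower in 2, against 7.54% and 4.89% over all genes.

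Most genes that passed at 9 h did not pass in the same direction before the drug. Of the 3124 genes higher at 9 h, 818 (26.2%) were also higher at 0 h, 490 were lower at 0 h and 1816 did not pass there. Of the 2444 genes lower at 9 h, 545 (22.3%) were also lower at 0 h, 375 were higher and 1524 did not pass. These shares grew with time, to 1562 of the higher and 1223 of the lower genes at 3 h, and to 67.5% and 67.9% at 6 h. At 0 h itself 4416 genes passed (27.3%). Tested as a change of the gap between 0 h and 9 h, 4386 genes passed (27.1%), 2372 toward higher (14.7%) and 2014 toward lower (12.5%). Between 6 h and 9 h 706 passed (4.37%), 475 toward higher (2.94%) and 231 toward lower (1.43%), while the fit of the compared groups alone gave 433 and 424. Without replicate 2 of KO1 at 9 h 467 passed. Across 10167 genes averaging 5 CPM or more at 9 h, the 9 h gap correlated with the gap at 0 h at r = 0.19, at 3 h at r = 0.54 and at 6 h at r = 0.81; genes are not independent replicates, and both axes hold the same 2 clones.

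**Figure D4:**
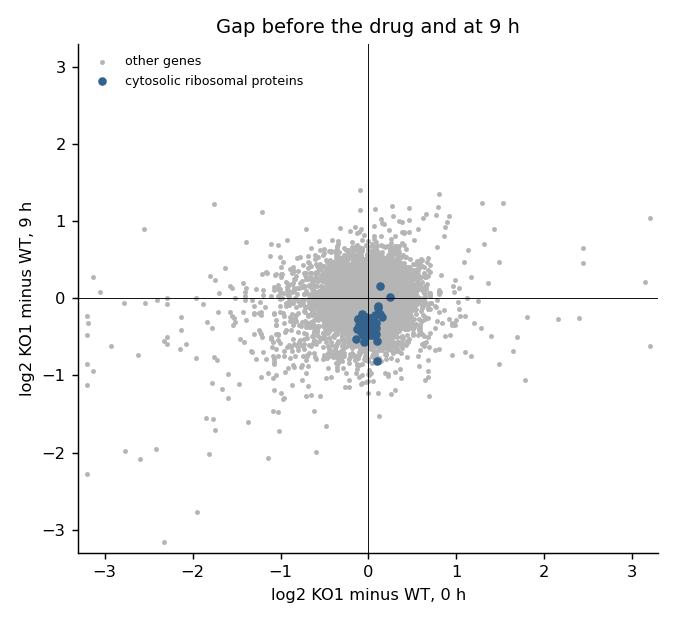
Log2 difference (KO1 minus WT) at 0 h on the horizontal axis and at 9 h on the vertical axis for the 10167 genes averaging 5 CPM or more at 9 h, with 78 cytosolic ribosomal protein genes in blue. The blue points sit near 0 on the horizontal axis and under 0 on the vertical axis; 7 genes beyond the axis limits of 3.2 are drawn at the edge.

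The genes whose gap changed most from 0 h to 9 h were named by the same rule. Exoc3l2 stood at 27.5 and 29.6 CPM in KO1, against 16.3 and 14.2 CPM in WT at 9 h, and at under 0.5 CPM in every library at 0 h. Serpinf1, an extracellular inhibitor of vessel growth, averaged 15.7 CPM in KO1 and 7.22 CPM in WT at 9 h, and 1.16 CPM in KO1 and 2.69 CPM in WT at 0 h. In the other direction Il23a, a subunit of interleukin 23, averaged 1.73 CPM in KO1 and 3.38 CPM in WT at 9 h, and 76.8 CPM in KO1 and 34.5 CPM in WT at 0 h. Trmo, a tRNA methyltransferase gene, averaged 6.65 CPM in KO1 and 10.6 CPM in WT at 9 h, and 3.70 CPM in KO1 and 2.19 CPM in WT at 0 h.

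Genes were also divided into 5 equal bins, here called quintiles. The first split was by the change between 0 h and 6 h in WT, whose libraries do not enter the 9 h comparison. It is not independent of that comparison, since a gain particular to the WT course would also lower KO1 minus WT at 9 h. The quintile that gained most had 8.29% of its genes higher in KO1 and 20.3% lower, with a median of -0.24. The quintile that lost most had 21.6% higher and 7.51% lower, with a median of 0.10. The correlation with that change was r = -0.23 over the 10167 genes. By the change between 0 h and 9 h in KO2 the relation was weaker, with r = -0.06: the quintile that lost most had 16.9% higher and 11.97% lower, and the quintile that gained most 13.2% higher and 16.2% lower. By exonic length, in the shortest quintile 5.13% were higher and 12.7% lower, and in the longest 29.1% were higher and 13.9% lower. Among protein-coding genes averaging 5 CPM or more, a restriction chosen after the data were seen, the shortest quintile had 23.9% higher and 24.7% lower and the longest 33.1% higher and 13.5% lower, and without the ribosomal proteins the shortest quintile had 24.5% higher and 22.6% lower. Long intergenic RNAs had 23 of 604 higher and 110 lower, with a median of -0.23, and antisense transcripts 18 of 755 higher and 75 lower, while protein-coding genes had 3005 of 12269 higher and 2016 lower. The counting ignored strand, so reads of antisense and overlapping genes cannot be told apart. In the quintile of lowest mean CPM 1.61% were higher and 5.41% lower, and in the highest 42.4% were higher and 23.96% lower.

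**Figure D5:**
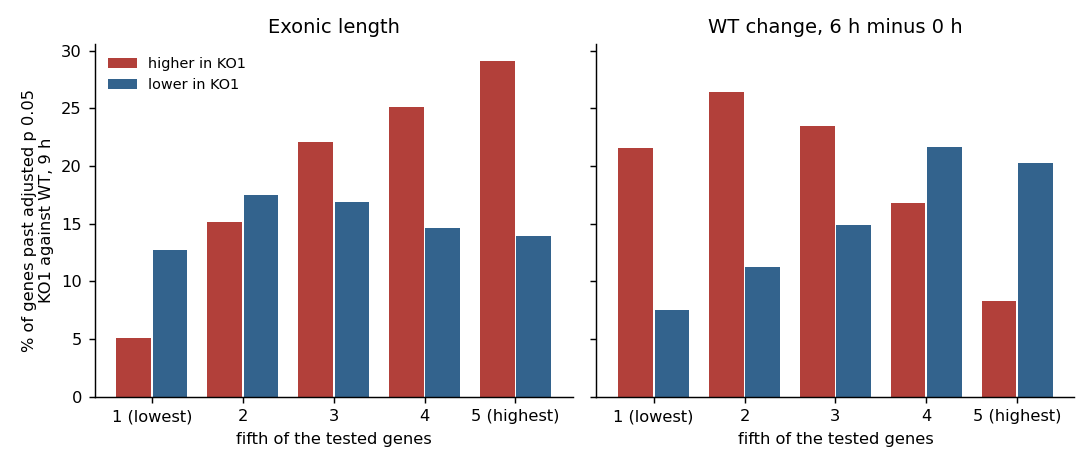
Percentage of genes higher (red) and lower (blue) in KO1 than in WT at 9 h, at an adjusted p under 0.05, in each quintile of the 16167 tested genes by exonic length (left) and by the WT change between 0 h and 6 h (right). The percentage of genes higher in KO1 goes to 29.1% in the longest quintile, against 5.13% in the shortest, and is 8.29% in the quintile that gained most in WT. The WT split is not independent of the 9 h comparison, since both hold the WT course.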

How the data were processed

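Each library has 1 deposited table of raw counts by gene. The authors made these counts with featureCounts 1.6.3, paired, over exons and ignoring strand, per the file headers, whose annotation path names Ensembl 105 and GRCm39 with spike-ins added; the submitters' processing notes also name STAR and DESeq2, with no version given in the sources used here. Per the labels' protocols the kit was directional. Spike-in entries were removed, leaving 55414 identifiers, of which GENCODE mouse release M21 named 52081. Groups came from the titles.

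filterByExpr in edgeR 4.0.16 (minimum count 10; R 4.3.3) left 16167 genes, scaled by TMM. One quasi-likelihood fit over 24 libraries and 12 groups gave each contrast, with Benjamini-Hochberg adjustment and a threshold of 0.05. SE is the fitted difference over the root of its F statistic. The scripts were tested on simulated data. Alternatives were DESeq2 1.42.0, other scalings and filters, glmTreat at 1.2-fold, the contrast groups alone, the replicate number as a block, and each library left out. With 2 libraries a group, the design cannot give a permutation p under 0.05, so tests rest on the fit across genes, and p-values measure the spread between the 2 replicates.

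Named genes are Nat10, Thumpd1, the 12 largest called rises and falls with a mean of at least 5 CPM and no overlap of libraries, 4 each way for the change of the gap and for KO1 against KO2, and up to 3 called members each way of each list; predicted genes were counted and not named. The members and lists were chosen with earlier results of these data known; the TOP list, the length bins of coding genes and the motif (1 of 6 tried) were chosen after their values were seen. Same-numbered KO1 and WT libraries did not deviate together at 9 h (correlation 0.0196), so the numbers do not pair them. Coordinates of genes are the files' own on GRCm39. The libraries held 15361601 to 17338939 gene counts each, without molecular identifiers, so floors and intervals cover counting error only. A few genes that the naming rule selects are not reported here.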

Additional observations from a re-analysis of the deposited data

Results flagged for a closer look

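The first 3 values rest on a test of a difference between 2 gaps or 2 clones: 4386 genes had a KO1 against WT gap at 9 h that differed from that at 0 h, 706 differed between 9 h and 6 h, and 2010 genes differed between KO1 and KO2 at 9 h.

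Among single genes, the gap changed on the log2 scale by 3.45 for Exoc3l2, 2.32 for Serpinf1 and 1.99 for Stom, and by -2.12 for Il23a, -1.92 for Lrmda, -1.56 for Mipol1 and -1.42 for Trmo. Exoc3l2 stood under 0.5 CPM in every library of 0 h, so its fitted value rests on a few counts, and Lrmda and Mipol1 stood under 2 CPM in every KO1 and WT library at 9 h. Between the clones at 9 h, KO1 minus KO2 was 1.73 for Fcgr2b, 1.45 for Adgre1 and 1.23 for mt-Co2, and -7.35 for Ifi203, -6.99 for Apol9b and -5.11 for Zbp1, the last 3 being interferon-induced genes. Mid1ip1 had a ratio of 564 for KO1 over KO2 and Rtp4 a ratio of 906 for KO2 over KO1, with a 95% exact interval of 250 to 7484 for the second.

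In the spike-in counts, which set the scale in 1 alternative alone, KO1 at 9 h held a mean of 257.9 CPM, against 14.04 CPM in WT, 18.4 times as many.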

How the results depend on the processing

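Calls at 9 h numbered 5568 and were between 4268 and 4384 without 1 library; scaling by spike-in totals gave 16007, all lower, with a median over all genes of -4.16, and glmTreat gave 1347. Calls of at least 2-fold numbered 531, were between 398 and 459 without 1 library, and were 286 under DESeq2, 331 under glmTreat and 16007 on the spike-in scale. The median over all genes, 0.0066, was 0.0271 with DESeq2 size factors, -0.0471 with upper-quartile scaling and -0.00346 with TMM over the compared groups. Calls between KO1 and KO2, 2010, were 1335 under DESeq2 and between 1274 and 1538 without 1 library. The gap change from 6 h, 706, was between 467 and 535 without 1 library, and that from 0 h, 4386, between 3702 and 3827. With the replicate block the counts were 5606, 520, 4411, 2056 and 783 for the 9 h contrast, its 2-fold subset, the gap changes from 0 h, the clones and the gap changes from 6 h. Of 242 named genes past the threshold, 187 stayed past it in the same direction under every alternative run for them; of 2492 values under alternatives 0 reversed. Of 860 list counts 758 lay within 1.5 times, and 28 of 430 list medians changed sign. The totals for named genes and lists leave out the spike-in scale and glmTreat, which were run for the whole comparison alone. On the spike-in scale 0 genes were called higher in KO1, so those totals do not cover it. With 2 libraries per group, 1 library left out makes the other stand for its group's spread.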

Other observations

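Among the lists not described above, tubulin genes had 3 of 13 higher and 3 lower in KO1 than in WT at 9 h, with Tubb5 at 283 and 276 CPM in KO1 and 384 and 372 CPM in WT. Iron genes had 3 of 16 higher and 6 lower. Both ferritin subunits were lower: Fth1 stood at 3234 and 3189 CPM in KO1, against 4311 and 4251 CPM in WT (log2 difference -0.41, SE 0.01), while Steap3, an iron reductase gene, was higher by 0.49 and Hmox1, which frees iron from haem, by 0.24. RNA modification enzymes had 6 of 35 higher and 8 lower, or 6 and 5 under DESeq2, 7 and 5 without replicate 1 of KO1 and 6 and 5 without replicate 1 of WT, with the m6A writer gene Virma at 0.36 and the demethylase gene Fto at -0.86. Splicing factors of the SR group had 6 of 16 higher and 4 lower, or 5 and 6 under upper-quartile scaling, with Clk1, the kinase that acts on them, at 297 and 300 CPM in KO1 and 233 and 231 CPM in WT. AU-rich element binding proteins had 7 of 19 higher and 4 lower, or 3 and 6 under upper-quartile scaling and 4 higher without any 1 library, with Ptbp1 at 562 and 559 CPM in KO1 and 414 and 420 CPM in WT.

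Of 24 genes of the IL-3 receptor, JAK2 and STAT5 response 6 were higher and 7 lower (6 and 4 without replicate 2 of KO1), with the cytokine gene Osm higher by 0.54 and the activation antigen gene Cd69 lower by -0.71. Hypoxia genes beyond glycolysis had 6 of 19 higher and 4 lower, or 4 and 7 under upper-quartile scaling and 3 and 4 without replicate 1 of WT. Aminoacyl-tRNA synthetases had 8 of 20 higher and 4 lower. Replication-dependent histones had 0 of 19 higher and 3 lower; 0 were lower without replicate 1 of KO1, and 1 without either WT library or under DESeq2. MAP kinase phosphatases and feedback genes had 4 of 16 higher and 2 lower, or 3 and 4 under upper-quartile scaling; 2 were higher without replicate 1 of KO1 or of WT, and 1 was lower without any 1 library. Zinc-finger Zfp genes had 73 of 300 higher and 23 lower; 11 were lower without replicate 1 of KO1 or replicate 2 of WT and 14 without replicate 2 of KO1 or under DESeq2. The list included Zfp750 at 125 and 128 CPM in KO1 and 72.8 and 71.0 CPM in WT. Of lymphoid genes 0 of 4 were higher and 2 lower, and of stromal, epithelial and endothelial genes 1 of 4 was higher and 0 lower, and 0 were higher without either KO1 library, without replicate 2 of WT or under upper-quartile scaling.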
